A study of Mus musculus with 2 samples.

Results

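Immature basal vomeronasal sensory neurons (VSNs) are the young, not yet Omp-dominated neurons of the basal layer of the vomeronasal organ (VNO), and 119 of the 24084 cell barcodes in the series were placed among them. A barcode entered when it had 200 to 9000 genes and at most 10% mitochondrial UMIs (unique molecular identifiers, 1 per captured RNA molecule), at least 1 UMI each of Tfap2e, Gap43 and Gnao1, at least as many Gap43 as Omp UMIs, at most 1 Meis2 UMI and no Mki67 UMI. The filter on genes and mitochondrial UMIs kept 18704 barcodes, so the members made up 0.636% of them, with 62 in the first library and 57 in the second. All cells came from whole VNOs of wild-type male C57 BL/6J mice at postnatal day 60 that received no treatment. The organs were dissociated with papain and collagenase, frozen and run as 2 droplet-based 3' libraries. The sources used here do not say how the mice were divided between the libraries, so every p-value below measures only the spread between these 2 libraries, which may be technical.

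In the VNO, which detects pheromones and other social odours, stem cells keep making neurons throughout life. Progenitors pass through a Neurod1+ precursor stage and then become either apical VSNs, which use V1R receptors and the G protein subunit encoded by Gnai2, or basal VSNs, which use V2R receptors and the subunit encoded by Gnao1. Tfap2e encodes AP-2ε, a transcription factor of the basal lineage, whereas Meis2 encodes a homeodomain factor of the apical lineage. Gap43 encodes a growth cone protein of neurons that are extending axons, and Omp encodes a protein of mature chemosensory neurons. Basal VSNs usually pair 1 or a few V2R genes with a co-receptor from family C of the V2Rs, and some also make the nonclassical MHC proteins of the H2-Mv family.

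The members were set beside 3 other groups of the same libraries, all cut by UMI counts. Immature apical VSNs (589 cells) had at least 2 Meis2 UMIs, at least 1 each of Gnai2 and Gap43, at least as many Gap43 as Omp UMIs, and no Tfap2e or Mki67. Mature basal VSNs (109 cells) differed from the members in having more Omp than Gap43 UMIs. Neurod1+ precursors (74 cells) had at least 2 Neurod1 UMIs, no Tfap2e, Omp or Mki67 and at most 1 Meis2 UMI. A cell of the VNO that should lack receptor genes was needed as a background for sparse counts, and 1567 macrophages with at least 3 UMIs each of C1qa and C1qb and at least 1 of Csf1r were used for this.

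The series held 108005626 and 95442231 UMIs in its 2 libraries, and the members had a median of 8989 UMIs and 2947 genes per cell. Of the barcode sequences, 33 occurred in both libraries, and 0 of these were members. A doublet caller marked 3 of the 119 members, which were kept. At least 5 UMIs of markers of sustentacular, basal, ensheathing, fibroblast, smooth muscle, endothelial and immune cells were found in 15 members (12.6%), against 237 of 589 immature apical VSNs (40.2%), 26 of 109 mature basal VSNs (23.9%) and 7 of 74 precursors (9.46%). Markers of gland cells, which were not counted there, reached 5 UMIs in 57 members (47.9%), 322 immature apical VSNs (54.7%), 58 mature basal VSNs (53.2%) and 42 precursors (56.8%). Each comparison was therefore also run over neuronal cells only, that is over cells below that limit, a choice made after the data had been seen.

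Promoter sequences are shown first for the gene that defines the branch and for 3 of the 8 genes named below as furthest above immature apical VSNs. These 3 were chosen because their promoters hold a match, whereas the promoters of Batf3, Shisa8 and Gm36028, also among the 8, hold none. Each runs from 250 bases before to 50 bases after a RefSeq transcription start (GRCm38.p6) and is written 5' to 3' on the strand of the gene. Capitals mark letters matching GCCNNNGGC, a sequence bound by AP-2 proteins, or TTCCCAC, a form of the sequence bound by RBPJ, the DNA-binding partner of activated Notch. Both strands were searched.
Tfap2e, chr4:126736220-126736519, minus strand, with the RBPJ letters: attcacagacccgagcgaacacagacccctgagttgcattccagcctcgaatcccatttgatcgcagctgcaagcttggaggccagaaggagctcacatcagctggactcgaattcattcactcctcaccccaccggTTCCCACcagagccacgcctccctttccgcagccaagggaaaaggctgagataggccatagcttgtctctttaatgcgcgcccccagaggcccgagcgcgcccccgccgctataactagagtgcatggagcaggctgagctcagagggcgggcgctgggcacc
Rprml, chr11:103649259-103649558, plus strand, with the AP-2 letters: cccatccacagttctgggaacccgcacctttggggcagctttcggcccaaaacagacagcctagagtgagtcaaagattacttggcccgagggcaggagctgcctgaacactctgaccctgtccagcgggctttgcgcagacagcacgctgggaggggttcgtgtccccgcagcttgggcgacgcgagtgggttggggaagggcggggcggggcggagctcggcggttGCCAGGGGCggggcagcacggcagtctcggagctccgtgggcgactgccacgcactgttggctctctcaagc
Wnt16, chr6:22287977-22288276, plus strand, with the AP-2 letters: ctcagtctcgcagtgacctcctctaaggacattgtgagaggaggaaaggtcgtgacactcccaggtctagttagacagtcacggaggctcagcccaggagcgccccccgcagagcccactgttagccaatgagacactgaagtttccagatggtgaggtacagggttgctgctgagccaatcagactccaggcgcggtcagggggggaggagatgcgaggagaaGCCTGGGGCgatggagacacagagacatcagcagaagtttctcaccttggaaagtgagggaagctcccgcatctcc
Prrxl1, chr14:32599677-32599976, plus strand, with the AP-2 letters: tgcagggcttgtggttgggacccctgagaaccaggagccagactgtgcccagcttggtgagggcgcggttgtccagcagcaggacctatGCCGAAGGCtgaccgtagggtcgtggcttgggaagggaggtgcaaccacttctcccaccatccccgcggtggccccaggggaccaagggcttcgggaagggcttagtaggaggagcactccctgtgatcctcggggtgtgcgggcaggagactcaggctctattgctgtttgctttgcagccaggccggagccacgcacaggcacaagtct

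The AP-2 letters occurred in 16.6% of all 32851 promoters of 300 bases and the RBPJ letters in 6.38%. Among genes that were tested between members and immature apical VSNs over neuronal cells only, 25% of promoters held the AP-2 letters, against 26.8% of promoters of genes higher in members and 24.7% of those lower. The RBPJ letters stood in 5.96%, 3.83% and 6.17% of the same 3 sets. Of the 11 promoters of the 8 genes named below as furthest above immature apical VSNs, 6 held the AP-2 letters and 0 the RBPJ letters. The 6 belonged to 5 genes (Rprml, Wnt16, Prrxl1, Galnt16 and Chd5), since the 2 windows of Chd5 overlap and hold the same match. For genes higher in members than in mature basal VSNs the shares were 26.1% and 4.47%, beside 25% and 5.95% of those tested, and against precursors they were 24.9% and 5.51%, beside 25.1% and 5.69%. The shares in the called sets lay near those of the tested genes. A match of letters describes this window only and is no evidence of binding.

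The genes of the rule were described without a test, because they chose the cells. Tfap2e (chromosome 4, 126716006 to 126736240, mm10) had a median of 2 UMIs per member, with a range from 1 to 20. Levels are counts-per-million values (CPM), the UMIs of a gene relative to all UMIs summed over the cells of a group in a library, and are printed for the first and then the second library. The Tfap2e level was 306 and 452 CPM in members, against 165 and 138 in mature basal VSNs. Gnao1 stood at 363 and 484 CPM in members, at 350.1 and 362 in mature basal VSNs and at 319 and 282 in precursors, which had not been chosen on it. Gap43 was at 1148 and 766 CPM in members, 622 and 601 in immature apical VSNs, 113 and 98.2 in precursors and 39.7 and 40.7 in mature basal VSNs. These Gap43 levels follow the cells that each gate admitted, non-neuronal ones included, and no order was read from them. Omp UMIs were present in 15 members, at 58.9 and 31.2 CPM, whereas mature basal VSNs had 816 and 787.

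Gnai2, the G protein gene of the apical branch, was not part of the rule for members. It was nevertheless found in 81 of 119 cells (68.1%, exact 95% interval 58.9 to 76.3), at 175 and 201 CPM. Precursors had 343 and 295 CPM and mature basal VSNs 29.5 and 36.4, so the level in members lay between those 2 groups in both libraries. Members with an Omp UMI had 48 and 0 CPM and those without had 214 and 227. Macrophages use Gnai2 as well (88.3% of cells), so they give no background for this gene. After each cell was thinned to 5000 UMIs, Gnai2 was found in 55.8% of members, 64.5% of precursors and 8.82% of mature basal VSNs. Neurod1, which drives differentiation of precursors, was left in 6 members, at 23.9 and 21.5 CPM against 1558 and 1113 in precursors.

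**Figure D1:**
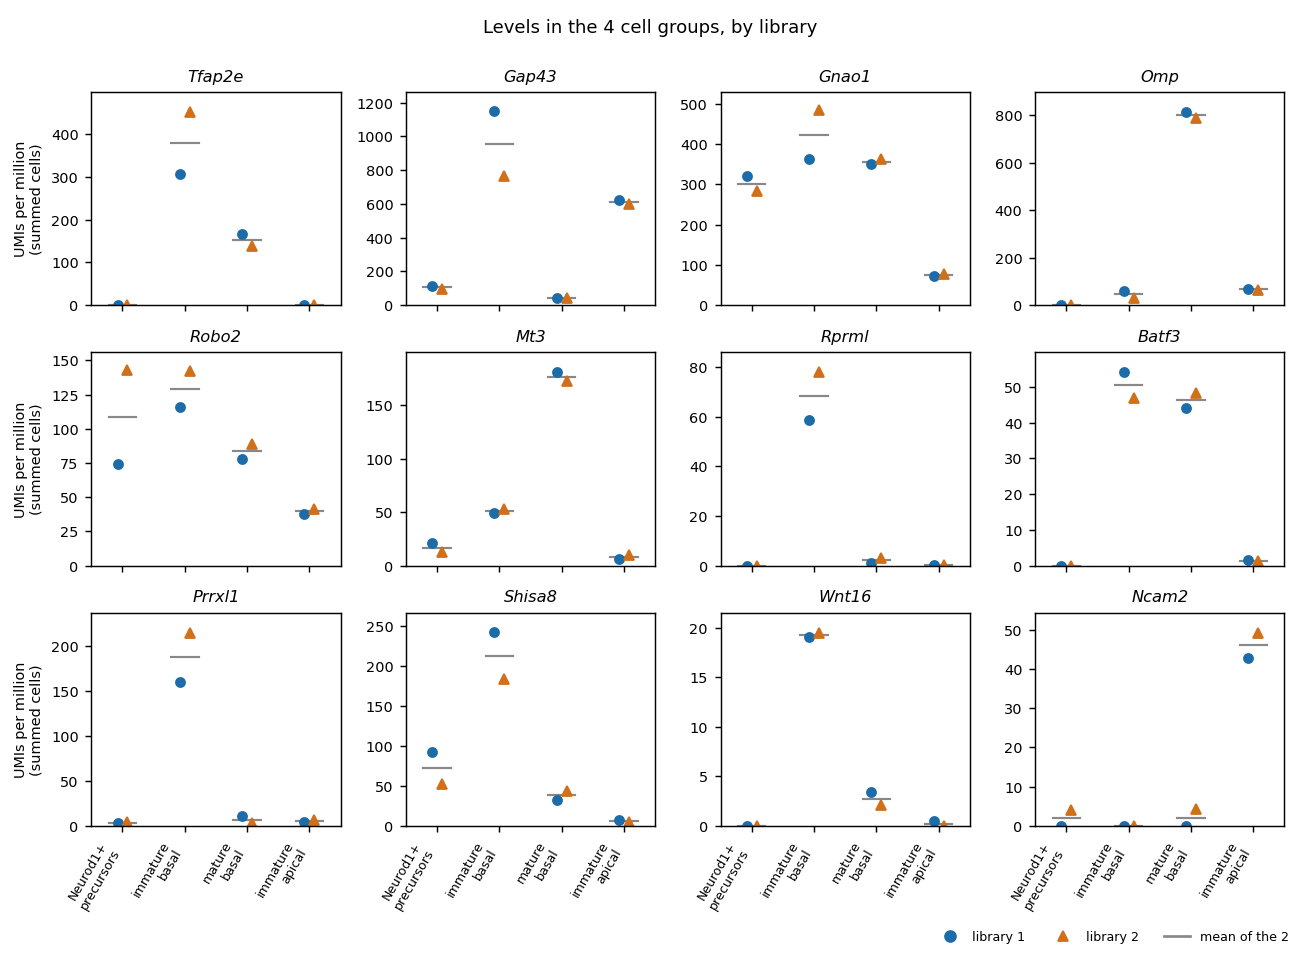
Levels of 12 genes in precursors, members, mature basal VSNs and immature apical VSNs, in CPM of the summed UMIs of a group. Circles are the first and triangles the second library, and grey lines are their mean. Rprml, Prrxl1 and Wnt16 were lower in the other 3 groups than in members in both libraries, and Ncam2 had no UMI in members.

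The cells close to the limits of the rule were as follows. Of the members, 42 had exactly 1 Tfap2e UMI (median 9503 UMIs, 12 of Gap43 and 59.5 of Stmn2), 17 had exactly 1 of Gnao1, 25 exactly 1 of Gap43, 5 had 1 Meis2 UMI and 2 had as many Omp as Gap43 UMIs. Just outside, 126 cells met every condition but Tfap2e (median 8571.5 UMIs, 3 of Gap43 and 53.5 of Stmn2), 11 lacked only Gnao1 and 18 had 1 to 3 more Omp than Gap43 UMIs. Robo2, a marker of the label that the rule did not use, was present in 54.8% of the 126 cells without a Tfap2e UMI. Gnai2, the G protein gene of the apical branch, was present in 74.6% of them. Precursors had Robo2 as well, at 74.6 and 143 CPM, so Robo2 does not mark these cells as basal. A further 8 cells had 2 or 3 Meis2 UMIs and 26 had more, with medians of 20892 and 32188.5 UMIs. Excluded cells with Meis2 were thus deeper than the members, and the part of barcodes that hold more than 1 cell in this was not tested.

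The remaining markers of the label were present. Robo2 encodes a receptor for Slit proteins that guides VSN axons in the accessory olfactory bulb, and it was found in 69 of 119 cells (58%, exact 95% interval 48.6 to 67), at 116 and 142 CPM. Thinned to 5000 UMIs the share was 46.9%, and in macrophages, with a median of 5178 UMIs, it was 0.893%. Mt3, which encodes a zinc-binding metallothionein, was found in 38 of 119 cells (31.9%, exact 95% interval 23.7 to 41.1), in 16.8% after thinning and in 1.21% of macrophages. Bcl11b, a zinc finger factor needed for the choice between the branches, was found in 93 of 119 cells (78.2%, exact 95% interval 69.6 to 85.2), against 2.87% of macrophages. Stmn2, a tubulin regulator of growing axons, had a median of 55 UMIs and was present in 118 of 119 members. Markers of olfactory sensory neurons were near 0, with 6 genes summing to 14.3 and 7.80 CPM and Cnga2 at 0. The intervals cover counting error only.

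Receptor genes were detected in a majority of the members, and the co-receptor family in a minority. A V2R gene outside family C had a UMI in 77 of 119 cells (64.7%, exact 95% interval 55.4 to 73.2), against 96.3% of mature basal VSNs, 2.70% of precursors and 5.42% of macrophages. Family C had a UMI in 36 of 119 cells (30.3%, exact 95% interval 22.2 to 39.3), against 95.4% of mature basal VSNs and 1.72% of macrophages. Immature apical VSNs, with a median of 9439 UMIs, were nearer to members in depth than macrophages were. Of these 589 cells, 85 had a V2R UMI outside family C and 44 had one of family C. Thinned to 5000 UMIs, the shares in members were 53.1% and 22.1%. Of the 119 members, 50 had V2R UMIs outside family C alone, 27 had both kinds, 9 had family C alone and 33 had neither.

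Most members with a family C UMI had one of Vmn2r1. Among members, 29 had Vmn2r1 alone, 3 had other family C genes alone and 4 had both kinds. Among mature basal VSNs, 43 had Vmn2r1 alone, 42 had other family C genes alone and 19 had both. Vmn2r1 was present in 33 of 119 cells (27.7%, exact 95% interval 19.9 to 36.7) and in 0.383% of macrophages. These shares were not tested against each other, because cells of 1 library are not replicates.

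Individual V2R genes outside family C were each carried by few members, and the highest totals came mostly from 1 cell each. A V2R gene outside family C with at least 2 UMIs was found in 42 members, and 32 of these had exactly 1 such gene and 10 had several. Vmn2r1 had at least 2 UMIs in 15 members, with 77 UMIs in all. It was followed by Vmn2r-ps159 and Vmn2r42 in 4 members each (157 and 61 UMIs) and by Vmn2r35, Vmn2r89 and Vmn2r2 in 3 each (129, 68 and 21 UMIs). Vmn2r95 and Vmn2r122 followed with 2 members each. The highest total was that of Vmn2r88, with 294 of its 298 UMIs in 1 member. Vmn2r95, Vmn2r80 and Vmn2r20 had 255 of 257, 254 of 254 and 232 of 233 UMIs in 1 member each. For Vmn2r-ps159, 1 member held 102 of the 157 UMIs. Near-identical V2R genes can share reads, so the gene assigned within a cell is uncertain. H2-Mv genes, which follow a subset of V2Rs, had a UMI in 14 of 119 cells (11.8%, exact 95% interval 6.58 to 19), in 48.6% of mature basal VSNs and in 2.30% of macrophages. V1R genes had a UMI in 36.1% of members and in 31% of macrophages, or 24.8% and 28.7% after thinning, so these shares lay near the background. A V1R gene with at least 2 UMIs was found in 6 members, and the highest count in 1 cell was 5 UMIs of Vmn1r22. The source of these V1R UMIs was not tested.

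**Figure D2:**
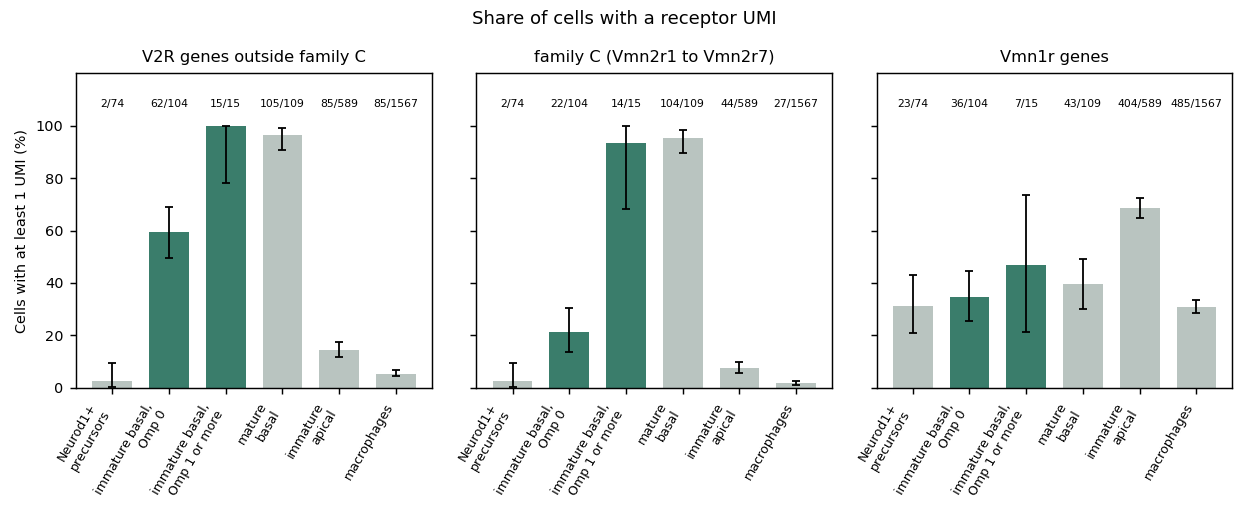
Share of cells with at least 1 UMI of V2R genes outside family C, of family C and of V1R genes, with exact 95% binomial intervals that cover counting error only and the cell counts above the bars. Green bars are members without and with an Omp UMI, and grey bars the other groups. Members without Omp reached 59.6% for V2R genes outside family C and 21.2% for family C, mature basal VSNs 96.3% and 95.4%, and V1R genes were found in 31.0% of macrophages.

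Members without any V2R UMI differed in the genes of stage from those with a V2R UMI outside family C. Single levels in this paragraph are summed over both libraries. The 33 cells with neither kind of V2R had 0 Omp UMIs and Neurod1 in 5 of them, at 66.1 CPM, and their Gnai2 level was 297 CPM. The 77 cells with a V2R UMI outside family C had Omp in 15 and Neurod1 in 0. Calr4, a chaperone of the calreticulin family in the endoplasmic reticulum (ER), was at 241 CPM in the former and 672 in the latter. By library it was at 310 and 156 CPM in the former and 855 and 447 in the latter. Of the 513 Calr4 UMIs in the 77 cells, 305 lay in the 15 cells with Omp, so this difference overlaps with the Omp split. Of the 20 Neurod1 UMIs in the 33 cells, 14 lay in 1 cell. The 9 members with family C alone resembled the 33 cells in Omp (0 UMIs) and Calr4 (213 CPM). Their Neurod1 level of 79.9 CPM came from 6 UMIs in 1 cell of the second library. Their Gnai2 level was 146 CPM. These splits were made on the cells described and carry no test.

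The members were compared with Neurod1+ precursors to ask what had changed since the preceding stage. The precursor gate asked for no gene of the basal branch, so branch and stage cannot be told apart in this comparison. UMIs were summed per library and group and tested with the quasi-likelihood test of edgeR, with p-values adjusted after Benjamini and Hochberg, 2 sums against 2, and all adjusted p-values below come from it. Of 9695 genes, 1114 (11.5%) were higher and 764 (7.88%) lower in members at an adjusted p under 0.05. Because the groups were cut by UMIs of Tfap2e, Gap43, Neurod1 and other genes of the gates, those genes were left out of every test, and genes that follow them had to differ. The members' sums serve in 3 comparisons, which are therefore not independent of each other. The 1878 calls fell to 1166 when cells were thinned to 5000 UMIs and to 1017 without the first library of precursors.

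Axon guidance genes and the calcium buffer gene Calb2 were higher in members. Calb2, which encodes the calcium buffer calretinin, was at 7223 and 5870.3 CPM in members and 134 and 102 in precursors, a log2 difference of 5.86 ± 0.18 (SE, adjusted p = 7.9e-11). Both member libraries lay above both precursor libraries. Epha5, an ephrin receptor, was at 145 and 146 against 2.98 and 4.09 CPM, a ratio of 42.2 (95% counting interval 11.5 to 351). Its ligand family member Efna5 was at 142 and 326 against 11.9 and 32.7 CPM (3.55 ± 0.47, adjusted p = 9.6e-05).

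Nrp2, a receptor for class 3 semaphorins, stood at 287 and 415 CPM against 41.8 and 85.9 (2.60 ± 0.28, adjusted p = 1.4e-05). Kirrel3, an adhesion protein of VSN axons, was at 25.5 and 39 CPM in members and had no UMI in precursors, at least 6.10-fold higher when 3 UMIs over the group are taken as the limit of a count of 0. Of the 33 axon guidance and sorting genes tested, 12 were higher and 2 lower, with a median log2 difference of 0.72 beside 0.02 over all genes. Robo2 was not separated from precursors (0.38 ± 0.27, adjusted p = 0.36), at 116 and 142 against 74.6 and 143 CPM. The Robo2 values of the libraries overlapped.

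The growth cone and cytoskeleton list moved both ways, with 10 higher and 7 lower of 32 and a median of 0.03. Stmn4, a relative of Stmn2, was at 474 and 306 against 68.6 and 61.4 CPM (2.67 ± 0.26). Elavl4, an RNA-binding protein of young neurons, was lower, at 115 and 121 against 794 and 699 CPM (-2.58 ± 0.17). Nnat, the imprinted neuronatin gene, was lower too, at 43 and 68.3 against 275 and 327 CPM (-2.36 ± 0.25). Of the list of mature neuron and vesicle genes, 19 were higher and 1 lower of 31, with a median of 1.01.

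Genes of protein folding in the secretory pathway were more often higher than lower against precursors, whereas signalling genes moved both ways. Of 12 signal transduction genes, 5 were higher and 2 lower (median 0.68). The G protein gamma subunit gene Gng8, found in 96.6% of members, was at 782 and 716 CPM against 391 and 331 (1.13 ± 0.14, adjusted p = 4.6e-05). Of 35 ER chaperone and unfolded protein response genes, 18 were higher and 1 lower, with a median of 1.01. Herpud1, which works in the disposal of misfolded ER proteins, was at 449 and 371 CPM against 71.6 and 77.7 (2.55 ± 0.18, adjusted p = 6.2e-07).

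Calr4 stood at 665 and 359 CPM against 89.5 and 65.4 (2.79 ± 0.29, adjusted p = 1.3e-05). The chaperone gene Hsp90b1 was at 1259 and 719.6 against 203 and 217 CPM (2.33 ± 0.22, adjusted p = 5.6e-06). Values of all 3 genes were higher in the first member library than in the second, and the groups did not overlap. Mt3 was at 49.3 and 52.7 CPM in members and 20.9 and 12.3 in precursors (1.64 ± 0.40, adjusted p = 0.01), whereas its list of metallothioneins and zinc transporters had 1 higher and 2 lower of 8 (median 0.05).

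Most called lineage factors and Notch genes were lower in members than in precursors. Over neuronal cells only, Meis1, Uncx, Insm1, Fezf1 and the Notch gene Mfng were also lower in members than in immature apical VSNs. The other lower genes of these lists were not called there. Neurog1, a proneural factor, was at 7.96 and 7.80 CPM in members and 137 and 123 in precursors (-3.95 ± 0.41, adjusted p = 1.2e-05). Uncx, a homeodomain factor, was at 12.7 and 13.7 against 275 and 151 CPM (-3.96 ± 0.37, adjusted p = 8.1e-06). Sox2 and Sox4 were lower by the same test (-3.31 ± 0.59 and -1.85 ± 0.28), whereas Bcl11b was not called (0.60 ± 0.22, adjusted p = 0.069). In all, 5 of 27 lineage factors tested were higher and 12 lower, with a median of -0.29.

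The receptor gene Notch1 was at 4.78 and 3.90 CPM in members and 47.8 and 81.8 in precursors (-3.72 ± 0.54, adjusted p = 0.0002). Mfng, a glycosyltransferase that modifies Notch receptors, had 1 UMI in members and 178 in precursors, a ratio of 350.4 (95% counting interval 62.1 to 13919) in favour of precursors. Hes6, a relative of the Hes factors that is made in differentiating neurons, was at 215 and 246 against 883 and 814 CPM (-1.80 ± 0.17, adjusted p = 5.6e-06). Hes5, a target of Notch, was lower (-3.18 ± 0.76, adjusted p = 0.0089), as was the target Hey1 (-1.67 ± 0.50, adjusted p = 0.031), although Hey1 lost its call over neuronal cells only (adjusted p = 0.052). Nrarp, another target, was not called (-1.09 ± 0.89, adjusted p = 0.44). Dll4, the Notch ligand named by the study, had a UMI in 0.84% of members, 5.41% of precursors and 0.128% of macrophages. The Notch list had 1 higher and 7 lower of 21 tested.

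Genes of cell division were lower in members by 7 of 14 tested, with a median of -1.32, and none was higher. Ccnd1, which encodes cyclin D1, was at 4.78 and 0 against 38.8 and 245 CPM, a ratio of 47.9 (95% counting interval 15.8 to 238) in favour of precursors, although its precursor libraries differed widely. Fibroblast markers summed to 1059 CPM in the second precursor library and 5.97 in the first, with 5 or more of their UMIs in 1 precursor, and sustentacular markers to 209 and 26.9. Over neuronal cells only, Ccnd1 and Sox2 were at -5.96 and -2.89, both still called. Ube2c and Cdk1, both of mitosis, were higher in precursors with ratios of 185 (95% counting interval 32.4 to 7387) and 90.6 (95% counting interval 15.5 to 3654). Both groups had been cut at 0 Mki67 UMIs. Immediate early genes had 1 higher and 5 lower of 16, and the Wnt and Bmp list 3 higher and 4 lower of 17. In the latter list Bmp7, a secreted growth factor, was at 84.4 and 131 against 11.9 and 12.3 CPM (3.21 ± 0.43, adjusted p = 0.00011), whereas its target Id1 was lower (-2.73 ± 0.24).

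By size, the genes furthest above precursors had no UMI there. Stxbp6, a syntaxin-binding protein, was at least 19.5-fold higher, followed by Pwwp3b (14.9-fold), Rprml (13-fold), Batf3, a leucine zipper factor (9.82-fold), Coch (9.14-fold), the secreted synaptic protein gene C1ql1 (8.47-fold) and Mymk (6.43-fold), all as lower bounds. At the other end, Sct, which encodes secretin, had no UMI in members and was at least 32.8-fold lower. The multiciliogenesis regulators Mcidas and Foxj1 followed at 26.3-fold and 18.4-fold, with Dtl (23-fold), Fam107a (14.4-fold), Fam183b (13.8-fold), the potassium channel regulator Kcnip3 (13.1-fold) and the zinc finger gene Fezf1 (9.19-fold), again as lower bounds.

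**Figure D3:**
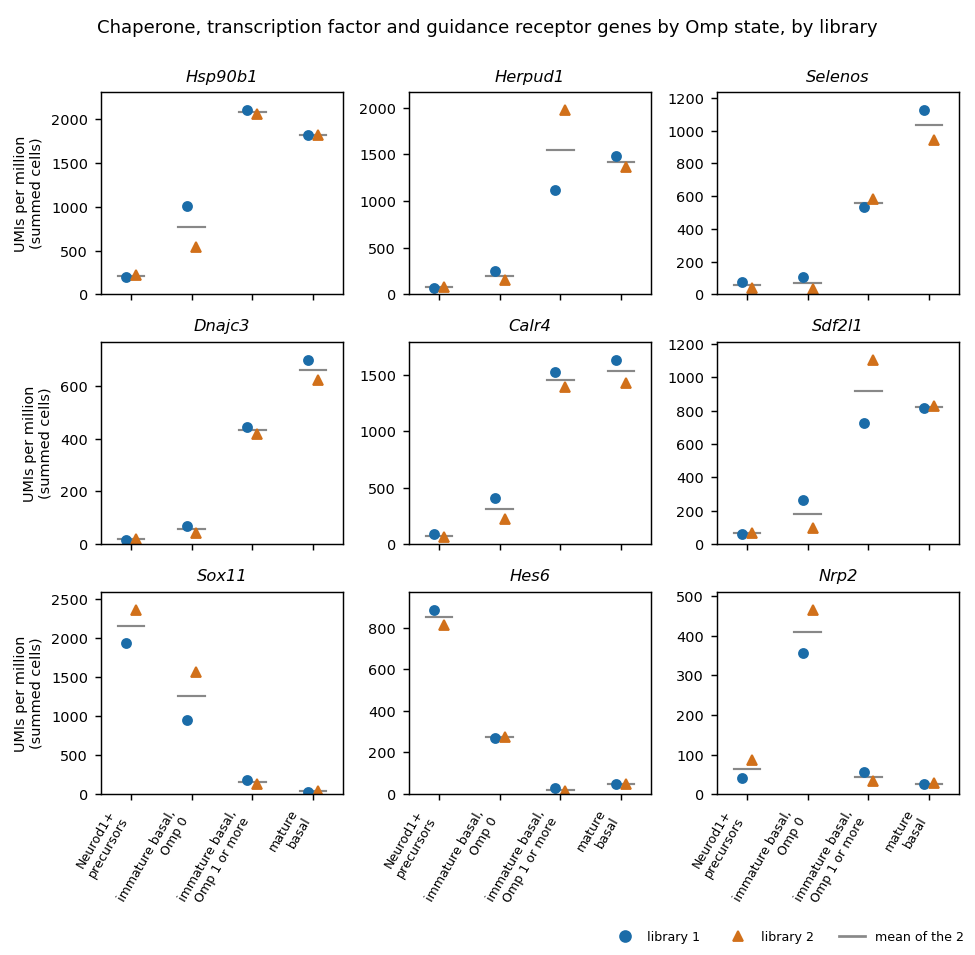
Levels of 6 ER and 3 other genes in precursors, members without and with an Omp UMI, and mature basal VSNs, in CPM of the summed UMIs of a group. Circles are the first and triangles the second library, grey lines are their mean, and the order of the groups is that of the gates, not a measured time. Calr4 stood at 1522 and 1387 in members with Omp against 406 and 223 in those without, whereas Sox11 stood at 178 and 134 against 956 and 1569.9.

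The comparison with mature basal VSNs asked what remains to change before maturity. Of 10925 genes, 1610 (14.7%) were higher and 1634 (15%) lower in members by edgeR's quasi-likelihood test, with a median of -0.00 over all genes. The 3244 calls fell to 2007 after thinning and to 2002 without the second library of members. Growth cone and cytoskeleton genes stood out, with 26 higher and 2 lower of 32 and a median log2 difference of 1.49. Stmn2 was at 5807 and 5461 CPM in members against 293 and 292 (4.27 ± 0.15, adjusted p = 5.8e-09). Ina, an intermediate filament protein, and Dcx, a microtubule protein of migrating neurons, were higher by 5.03 ± 0.22 and 4.04 ± 0.32.

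Lineage factors were mostly higher before maturity, with 18 higher and 3 lower of 26 and a median of 1.26. Sox11, a factor of newborn neurons, was at 775 and 1402 CPM against 30.6 and 38.6 (4.97 ± 0.28, adjusted p = 3.0e-07). Bcl11b was at 181 and 242 against 51 and 54.6 CPM (2.00 ± 0.21, adjusted p = 2.5e-05). Insm1, a zinc finger factor of new neurons, was higher by 4.54 ± 0.35, Neurog1 by 3.65 ± 0.99 (adjusted p = 0.016), and Uncx had no UMI in mature cells and was at least 7.96-fold higher.

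The Id genes, Bmp targets whose products hold back basic helix-loop-helix factors, were higher together: Id4 by 4.18 ± 0.30, Id2 by 3.57 ± 0.32, Id3 by 2.81 ± 0.59 and Id1 by 1.74 ± 0.33. In their Wnt and Bmp list, 7 were higher and 0 lower of 19 (median 0.40). Of 19 Notch genes, 4 were higher, among them Hes6 (2.24 ± 0.19) and Rbpj (1.48 ± 0.28), and 1 was lower (median -0.01). Hey1 was not called (-1.03 ± 0.44, adjusted p = 0.097) and turned direction over neuronal cells only (2.41, adjusted p = 0.048).

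Axon genes were divided. Nrp2 stood at 287 and 415 CPM against 24.9 and 27.9 (3.73 ± 0.26, adjusted p = 1.2e-06), whereas Kirrel2, an adhesion protein that sorts sensory axons, was at 27.1 and 1.95 against 269.6 and 347 (-4.29 ± 0.45, adjusted p = 2.7e-05). The list had 6 higher and 11 lower of 37, with a median of -0.37. Robo2, at 78.2 and 88.9 CPM in mature cells, missed the threshold (0.63 ± 0.24, adjusted p = 0.063).

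Signal transduction also changed its parts. Gng2 was at 234 and 236 CPM in members against 11.3 and 24.6 (3.70 ± 0.25, adjusted p = 9.5e-07), and Gnb2 was higher by 2.05 ± 0.17. The gamma subunit gene Gng8 was lower (-1.27 ± 0.13), as were Gng3 (-2.27 ± 0.24) and Ano1, a calcium-activated chloride channel (-2.65 ± 0.49). Of 14 genes in the list, 3 were higher and 8 lower (median -1.20). Vesicle and maturity genes had 3 higher and 15 lower of 32 (median -0.67), with the granule genes Scg3 and Chga at -2.38 ± 0.16 and -2.31 ± 0.16 and the vesicle gene Syp at -2.30 ± 0.19.

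The ER list was lower in members by 24 of 36 tested, with 2 higher and a median of -0.90. Selenos, which acts in the export of misfolded ER proteins, was at 204 and 99.5 CPM against 1123 and 942 (-2.74 ± 0.28, adjusted p = 2.3e-05). Calr4 was at 665 and 359 against 1627 and 1427 CPM (-1.56 ± 0.24), and Dnajc3 and Herpud1 were lower too (-2.41 ± 0.22 and -1.78 ± 0.14). Pdia4, a protein disulfide isomerase, went the other way (2.85 ± 0.47). The members thus stood between precursors and mature basal VSNs in Calr4 and Herpud1 in both libraries.

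Mt3 was also intermediate, at 49.3 and 52.7 CPM against 181 and 172 in mature cells (-1.79 ± 0.23, adjusted p = 0.00012). Its relative Mt1 was lower as well (-2.52 ± 0.26), and the list had 1 higher and 5 lower of 9 (median -1.35, or -1.20 with genes without a UMI in a group at their bound). Over neuronal cells only the list had 1 higher and 2 lower (Mt1 and Mt3) of 8, with a median of -0.50. Immediate early genes had 1 higher and 11 lower of 19, with a median of -1.23, but 5 higher and 4 lower of 15 and a median of 0.59 over neuronal cells only. The mature cells held sustentacular markers at 230 and 261 CPM, against 46.2 and 27.3 in members, and Atf3 and Nr4a1 turned direction when cells with non-neuronal markers were left out (0.59 and 0.66). Cell division genes had 2 higher and 0 lower of 11.

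Among the genes furthest above mature cells, Nnat had no UMI there and was at least 32.9-fold higher, followed as lower bounds by 9430021M05Rik (18-fold), Lhfpl1 (13.8-fold), Slc9a3r2 (13.3-fold), Gm15691 (11.7-fold), Col8a1, a short-chain collagen (11.7-fold), and Ripor2 (10.6-fold). Ptprt, a receptor phosphatase, had a ratio of 111 (95% counting interval 19.4 to 4463). Pvalb, which encodes the calcium buffer parvalbumin, was at 0 and 3.90 CPM in members against 348 and 296, a ratio of 183 (95% counting interval 50.5 to 1516) in favour of mature cells. Members had no UMI of Tmem59l, which was at least 27.6-fold lower, nor of Tmem52 (19.7-fold), Ancv1r, an ancient V1R-type receptor gene (17.4-fold), Tmem79 (9.0-fold), Ppef1 (7.12-fold), Fbxo2 (6.91-fold) and Cmah (6.70-fold).

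**Figure D4:**
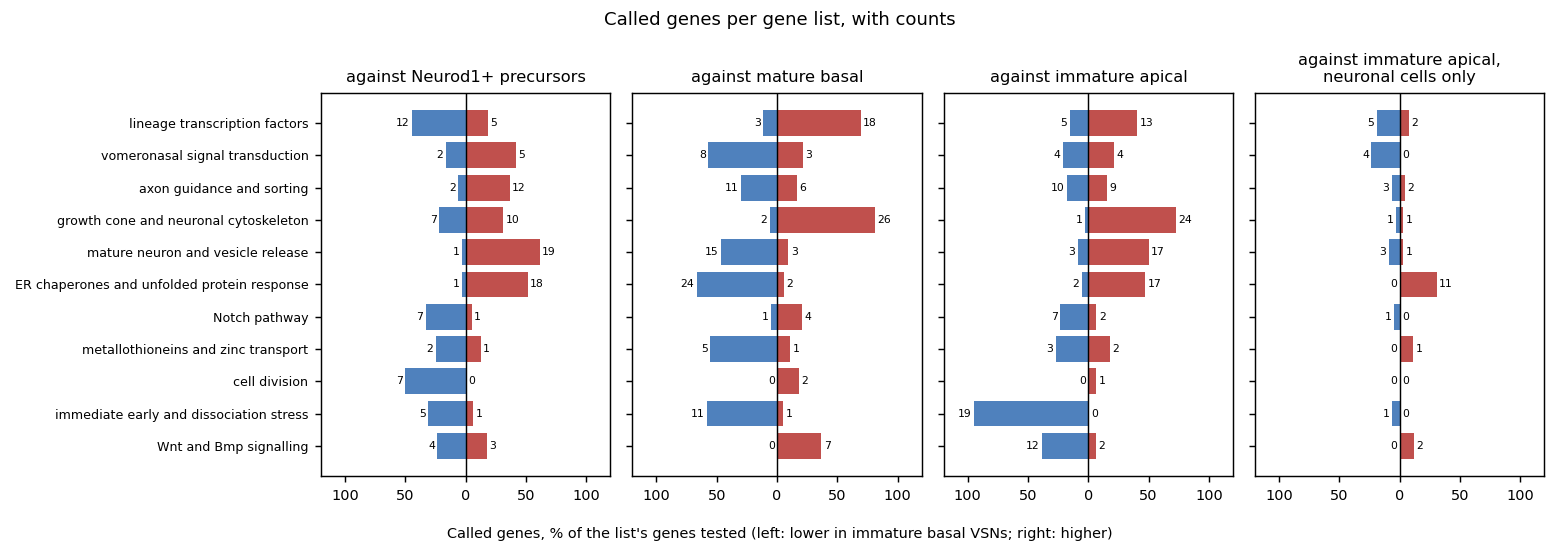
Share of the tested genes of each list that were called lower (blue, to the left) or higher (red, to the right) in members, in percent, against precursors, mature basal VSNs and immature apical VSNs, the last over all cells and over neuronal cells only. Numbers beside the bars count the genes. Growth cone genes were called higher 26 times against mature basal VSNs, and ER genes 11 times against immature apical VSNs over neuronal cells only.

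Immature apical VSNs are the counterpart of the members on the other branch, and the comparison asks what distinguishes the branches. The groups also differed in stage, with Neurod1 at 23.9 and 21.5 CPM in members and 119.8 and 108 in immature apical VSNs. The mature VSN markers were Omp, Rtp1, Gng13, Snap25 and Calb2. Over neuronal cells only, as defined above, they summed to 7667 and 5927 CPM in members and 5396 and 4328 in the apical group. Calb2 alone stood at 7223 and 5870 CPM in members over all cells, against 2389 and 2073 in the apical group. Snap25 was called higher there too, whereas Omp, Rtp1 and Gng13 lay lower in members in both libraries. These markers thus did not move as a set. Mature basal VSNs had Rtp1 at 3.40 and 1.07 CPM and Gng13 at 37.4 and 64.3. Immature apical VSNs had more of both, with Rtp1 at 58.1 and 55.4 CPM and Gng13 at 165 and 170. No basal stage was therefore read from Rtp1 or Gng13. The neural precursor markers summed to 364 and 362 against 650.1 and 795 over neuronal cells only. Branch and stage therefore cannot be told apart here. Of 14224 genes, 1206 (8.48%) were higher and 1519 (10.7%) lower in members. The apical group had markers of sustentacular cells, the supporting cells of the epithelium, at 1985 and 1937 CPM, with 5 or more of their UMIs in 30.9% of cells, and its gland cell markers stood at 18090 and 1731 CPM against 2555 and 673 in members. Over neuronal cells only, 260 (2.28%) of 11410 genes were higher and 212 (1.86%) lower, and 355 calls were shared with the full comparison, 13.0% of its calls and 75.2% of the smaller set. Values over neuronal cells only are printed beside the genes below as the second value.

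The genes furthest above the apical branch kept their calls in both settings. Over neuronal cells only, all 8 genes named here were called. Rprml, a small membrane protein gene (chromosome 11, 103649570 to 103650579), was at 58.9 and 78 CPM in members and 0.242 and 0.293 in immature apical VSNs, or 77 against 2 UMIs, with a ratio of 255 (95% counting interval 68.1 to 2140.0) and an adjusted p of 1.2e-07, and at least 68-fold higher over neuronal cells only. Wnt16, a secreted Wnt ligand (chromosome 6, 22288227 to 22298522), was at 19.1 and 19.5 against 0.484 and 0 CPM, a ratio of 72.7 (95% counting interval 17.9 to 638). The leucine zipper factor gene Batf3 (chromosome 1, 191097847 to 191108945) was at 54.1 and 46.8 against 1.45 and 1.17 CPM (5.25 ± 0.39, adjusted p = 2.2e-07, 5.58 over neuronal cells only).

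Rprml and Wnt16 had 2 UMIs each in the apical group and Batf3 had 10. Prrxl1, a homeodomain factor gene (chromosome 14, 32599407 to 32649246), was at 159 and 215 against 4.11 and 6.45 CPM (5.22 ± 0.31, adjusted p = 1.5e-08, 4.92 over neuronal cells only). Shisa8, which encodes a membrane protein of the Shisa family (chromosome 15, 82206168 to 82212815), was at 242 and 183 against 7.26 and 5.57 CPM (5.11 ± 0.27, 4.85 over neuronal cells only). The noncoding gene Gm36028 (4.36 ± 0.22, 3.89), the glycosyltransferase gene Galnt16 (4.77 ± 0.72, 5.03) and the chromatin remodeller gene Chd5 (4.32 ± 0.55, 3.95) completed the 8. Prrxl1 and Rprml were at 11.3 and 3.21 and 1.13 and 3.21 CPM in mature basal VSNs, and were higher in members than there as well (4.69 ± 0.38 and 4.90 ± 0.47).

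Robo2 and Mt3, the markers of the label that the rule did not use, were higher in members than in immature apical VSNs. They were named with earlier results of these data known, so their difference gives no independent support for the label. Branch and stage are not told apart by it either. Robo2 (chromosome 16, 73891839 to 74411825) was at 116 and 142 CPM against 37.7 and 41.3 (1.79 ± 0.23, adjusted p = 2.8e-05), and at 1.19 over neuronal cells only (adjusted p = 0.0064). Mt3 (chromosome 8, 94152607 to 94154146) was at 49.3 and 52.7 against 6.53 and 9.96 CPM (2.72 ± 0.28, adjusted p = 3.2e-06, 2.62 over neuronal cells only). Bcl11b was called in the full comparison (0.70 ± 0.18) but was at 0.01 over neuronal cells only, and Stmn2 went from 0.91 ± 0.13 to 0.04 and Hes6 from 0.82 ± 0.17 to 0.04.

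Of 36 ER genes tested, 17 were higher and 2 lower with a median of 0.53, and over neuronal cells only 11 were higher and 0 lower with a median of 0.59, beside -0.07 over all genes. Over the same neuronal cells the gland cell markers stood at 2970 and 715 CPM in members and 720.3 and 730.4 in immature apical VSNs, and their part in these counts was not tested. Sdf2l1, a partner of the main ER chaperone, was at 372 and 216 CPM against 56.4 and 56.6 (2.48 ± 0.21, 2.16 over neuronal cells only). The neurotrophic ER protein gene Manf (1.89 ± 0.16, 1.66), Creld2 (1.63 ± 0.29, 1.70), Calr4 (2.45 ± 0.23, 1.53) and Hspa5, the main chaperone of the ER (0.88 ± 0.23, 1.53), had the same direction. In the full comparison Hspa5 stood at 1288 and 624 CPM against 513 and 597, so its difference came mainly from the first member library.

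The other lists depended on the setting. Growth cone genes had 24 higher and 1 lower of 33 in the full comparison (median 0.83) and 1 and 1 of 33 over neuronal cells only (median 0.10). Vesicle and maturity genes had 17 and 3 of 34 against 1 and 3 of 33, and lineage factors 13 and 5 of 32 against 2 and 5 of 26. Immediate early genes had 0 higher and 19 lower of 20 (median -3.18) against 0 and 1 of 16 (median -0.11). Notch genes had 2 higher and 7 lower of 30 against 0 and 1 of 23, axon genes 9 and 10 of 57 against 2 and 3 of 46, and Wnt and Bmp genes 2 and 12 of 31 against 2 and 0 of 17. Metallothioneins had 2 higher and 3 lower of 11 against 1 and 0 of 9, cell division genes 1 and 0 of 16 against 0 and 0 of 14, and signal transduction genes 4 and 4 of 19 against 0 and 4 of 17. Sox2, Hey1, Atf3, Nr4a1 and Hspb1 turned direction when cells with non-neuronal markers were removed, from -4.90 ± 0.42 to 0.71 in the case of Sox2. Nrp2, taken here as a marker of apical VSNs, was found in 79.0% of members, at 287 and 415 CPM against 346 and 350. It was at 0.09 ± 0.19 in the full comparison and -0.68 over neuronal cells only (adjusted p = 0.061), where it was called with the replicate block (-0.69, adjusted p = 6.6e-06). Reep1, an ER-shaping protein gene, was at -1.03 ± 0.34 in the full comparison and 1.64 over neuronal cells only (adjusted p = 0.054), and was called there with the block (1.64, adjusted p = 0.015).

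Genes lower in members than on the apical branch included several that held over neuronal cells only. Ncam2, an adhesion protein of apical axons (chromosome 16, 81200697 to 81626828), had no UMI in members, against 42.8 and 49.2 CPM, and was at least 17.4-fold lower, or 28.5-fold over neuronal cells only. G630016G05Rik had no UMI either and was at least 27.6-fold lower, or 44.3-fold. Gng13, a G protein gamma subunit gene, was at 11.1 and 11.7 CPM against 165 and 169.7 (-3.78 ± 0.38, -4.68 over neuronal cells only). Rtp1, a receptor transporter, had 1 UMI in members and 429 in immature apical VSNs, a ratio of 64.9 (95% counting interval 11.6 to 2568) in favour of the latter.

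Gng2 and Uncx were lower in members in both settings (-0.90 ± 0.18 and -1.81 ± 0.38, -1.74 and -2.78 over neuronal cells only). The chemokine gene Ccl21a, Fcgbp, Ednrb, Bace2, 1700001O22Rik and Sox21 had no UMI in members and were at least 85.5-, 26-, 25.9-, 21.2-, 18.8- and 15.7-fold lower. Over neuronal cells only, these 6 genes fell under the limit of 10 UMIs and were not tested. The sustentacular markers of the apical group moved with them, and the part of such cells in these 6 values was not tested.

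**Figure D5:**
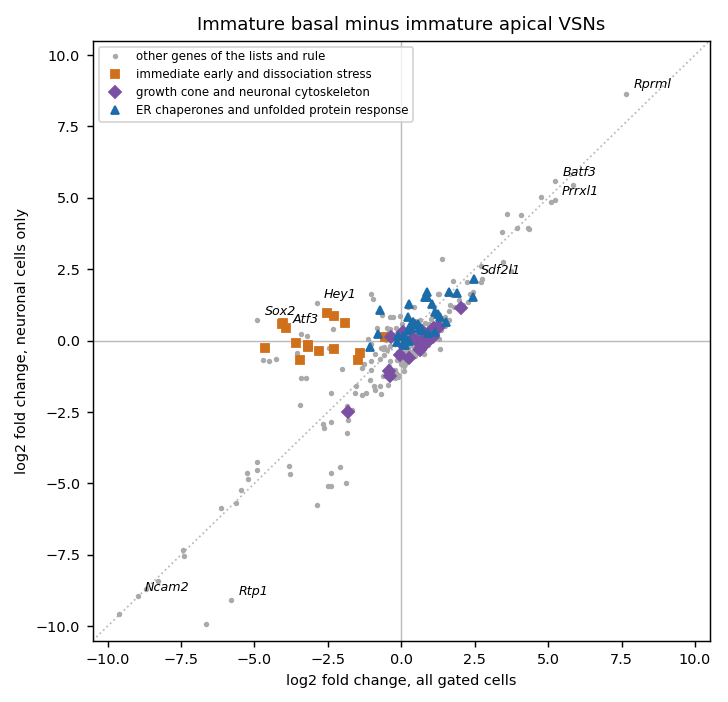
Fitted log2 fold change of the genes of the lists and the rule, members minus immature apical VSNs, over all cells of the groups (horizontal axis) and over neuronal cells only (vertical axis), with a dotted line of equal values. Values of genes without a UMI in a group, such as Ncam2, depend on the fit and are not bounds. Batf3 and Prrxl1 lie near the line, whereas Sox2, Hey1 and Atf3 change sign.

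The members were not uniform in maturity. The 15 members with an Omp UMI (11 in the first library and 4 in the second, median 14351 UMIs) were compared with the 104 without (51 and 53, median 8818 UMIs). Omp was left out of the test, and a cell of greater depth is more likely to show an Omp UMI, so depth and stage cannot be told apart by the gate alone. Of 8347 genes, 338 (4.05%) were higher and 311 (3.73%) lower in Omp-positive members, with a median of -0.16 over all genes. The 649 calls fell to 195 with a mitochondrial limit of 5%, to 226 with DESeq2 and to 276 after thinning. At least 5 non-neuronal UMIs were found in 6 of the 15 and 9 of the 104, and macrophage markers stood at 1310 and 401 CPM against 216 and 322. Fibroblast markers stood at 13.7 and 351 CPM against 18.7 and 4.42, and smooth muscle markers at 27.4 and 100.3 against 222 and 22.1.

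ER genes were higher in Omp-positive members, with 15 higher and 0 lower of 34 and a median of 1.08, and over neuronal cells only 12 higher and 0 lower of 33 tested. Herpud1 was at 1118 and 1972 CPM in Omp-positive and 247 and 159 in Omp-negative members (2.71 ± 0.26, adjusted p = 5.7e-07). Selenos was at 535 and 585 against 104 and 35.3 CPM (2.82 ± 0.35, adjusted p = 1.6e-05). Calr4 was at 1522 and 1387 against 406 and 223 CPM (2.05 ± 0.25), and Hspa5 was higher by 1.14 ± 0.27. The Omp-positive values lay above the Omp-negative ones in both libraries.

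Vesicle and maturity genes had 7 higher and 3 lower of 29 (median 0.29), among them Chga (1.54 ± 0.23), Syp (1.62 ± 0.39) and the receptor transporter Rtp2 (2.50 ± 0.51). Gng8 was at 1694 and 1871 against 506 and 563 CPM (1.57 ± 0.19), in a signal transduction list with 3 higher and 2 lower of 11. Mt3 was at 89.1 and 184 against 37.3 and 35.3 CPM (1.58 ± 0.44, adjusted p = 0.029). It was the only call of 7 metallothionein and zinc genes.

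Several genes of the youngest neurons were lower in the Omp-positive members. Gap43, which was not tested, went the other way, at 1728 and 936 CPM against 972 and 744. The rule asks members with Omp for at least as many Gap43 UMIs, so no stage was read from that level. Growth cone genes had 1 higher and 16 lower of 32 (median -0.97), with Stmn2 at -1.30 ± 0.20 and Ina at -2.37 ± 0.36. Lineage factors had 1 higher and 9 lower of 23. Sox11 was at 178 and 134 CPM against 956 and 1569.9 (-3.09 ± 0.29, adjusted p = 4.2e-07), and Bcl11b and Lhx2 were at -2.09 ± 0.39 and -1.60 ± 0.24.

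Nrp2 was at 54.9 and 33.4 against 357 and 466 CPM (-3.22 ± 0.37, adjusted p = 6.0e-06) and Efna5 was lower by the same test (-2.57 ± 0.45), whereas the adhesion gene Cntn4 and the semaphorin receptor gene Plxna1 were higher (1.86 ± 0.24 and 1.93 ± 0.57), and the axon list had 2 higher and 3 lower of 27. Hes6 was at 27.4 and 16.7 against 272 and 276 CPM (-3.61 ± 0.44), the only call of 14 Notch genes. Wnt and Bmp genes had 0 higher and 3 lower of 14, with Id2 at -2.64 ± 0.40, immediate early genes 2 and 1 of 15, and cell division genes 0 and 1 of 7. The Omp-positive members thus lay on the mature side of the Omp-negative ones for Sox11, Nrp2, Calr4 and Mt3.

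The genes with the largest differences by size were led by Bglap3, an osteocalcin-related gene, at 829.7 and 852 CPM in Omp-positive and 20.7 and 6.62 in Omp-negative members (5.72 ± 0.36, adjusted p = 1.7e-09). Dcdc2a, a doublecortin-domain gene (4.65 ± 0.60), Igfbp4 (4.82 ± 0.99) and Traf3ip3 (4.48 ± 0.53) followed, and Vil1, which encodes the microvillus protein villin, had a ratio of 45.5 (95% counting interval 11 to 401), Lsmem1 of 43.2 (95% counting interval 10.4 to 382) and Faim2 of 27.3 (95% counting interval 7.97 to 145). Ly6a had 23 UMIs in Omp-positive members and none in the others, at least 34.9-fold higher, but was not tested over neuronal cells only. The part of fibroblasts or other non-neuronal cells in the values of Ly6a and Igfbp4 was not tested. Creb5, a leucine zipper factor, was at 207 and 320.2 CPM in Omp-negative members and had no UMI in the 15 others, at least 18-fold lower. The same held for Pcp4 (7.04-fold), Mex3a (5.64-fold), Rprml (5.64-fold), the neuropeptide gene Gal (4.76-fold), Gm13889 (4.69-fold), Nnat (4.54-fold) and C1ql1 (3.67-fold).

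Receptors followed the same split. All 15 Omp-positive members had a V2R UMI outside family C, and 93.3% had family C, whereas the shares in Omp-negative members were 59.6% and 21.2%. H2-Mv UMIs were found in 6 of 15 and 8 of 104. Thinned to 5000 UMIs, the V2R shares outside family C were 100% and 46.5%, and those of family C 71.4% and 15.2%. The splits of single cells carry no test.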

How the data were processed

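Whole VNOs of 5 male mice were dissociated and frozen, and 2 libraries were made with 10x 3' chemistry. The authors aligned reads to mm10 and counted UMIs with Cell Ranger, per the labels, and merged the libraries; the deposited values are raw counts of UMIs for each gene in each barcode. The sources used here do not state whether the merge equalised depth, and chromosome positions come from GENCODE annotation of mm10. The members, groups, gene lists and tests were chosen with earlier results of these data known.

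Cells were taken as stated with the results, Scrublet was run per library through scanpy 1.11.5 and called 212 and 171 doublets among 10007 and 8697 cells, which were kept, and UMIs were summed per library and group. Genes with at least 10 UMIs over the sums of a comparison were tested with edgeR 4.0.16 in R 4.3.3 (TMM, quasi-likelihood, Benjamini-Hochberg, 0.05), in 1 fit of 4 groups, and the Omp split in a fit of its own. The 8 genes of the gates and 13 mitochondrial genes were not tested. The script was tested on simulated data. Named genes were the markers, the genes of the gates, the 8 genes with the largest difference in each direction among those called, alike in both libraries and with at least 20 UMIs (receptors left out), and called members of each list, and some of these are not reported here. The lists held lineage factors, signal transduction, axon guidance, growth cone, maturity, ER, Notch, metallothionein, division, immediate early, and Wnt and Bmp genes. Alternatives were DESeq2 1.42.0, no filter on low counts, a replicate block, stricter gates, a 5% mitochondrial limit, thinning, doublet removal, leaving out each sum, and neuronal cells only. Libraries of the same group differed by more than counting noise. Near-identical receptor genes and overlapping genes may share reads.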

Additional observations from a re-analysis of the deposited data

How the results depend on the processing

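Counts of called genes moved by over 1.5 times under these alternatives. Against immature apical VSNs the 2725 calls became 1480 with DESeq2, 1077 with a mitochondrial limit of 5%, 1332 after thinning to 5000 UMIs, 472 over neuronal cells only and 944 there with the replicate block, and leaving out 1 sum at a time gave 1577 to 2851, with 1681 and 1577 when the first or second library of members was left out. Against mature basal VSNs the 3244 calls became 2007 after thinning, and leaving out 1 sum gave 2002 to 3397, lowest without the second library of members. Against precursors the 1878 calls became 1166 after thinning, and leaving out 1 sum gave 1017 to 1796, lowest without the first library of precursors. The Omp split went from 649 calls to 226 with DESeq2, 195 with the 5% limit, 289 when Tfap2e and Gnao1 needed 2 UMIs, 276 after thinning and 332 over neuronal cells only with the replicate block, and leaving out 1 sum gave 414 to 779, lowest without the second library of Omp-negative members. The gate with 2 UMIs kept 68 of the 119 members. A lone sum was assumed to vary like those of the other groups, and the cause of these moves was not tested, apart from fewer cells or UMIs in the thinned, stricter and reduced sets.

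The replicate block on its own, which pairs sums of the same library, gave 3609, 3546, 2027 and 754 calls, and the numbers did not pair the sums (correlations of 0.067, -0.024, 0.013 and -0.00605). Of the values of named genes under the alternatives, 5580 kept direction and side of the threshold, 496 lost and 13 gained a call, 23 reversed, and 3 with no test moved by more than the spread of the libraries. Over neuronal cells only, without and with the block, members minus immature apical VSNs came to 0.71 and 0.70 for Sox2, 1.30 and 1.31 for Hey1, 0.43 and 0.43 for Atf3, 0.58 and 0.58 for Nr4a1, 0.63 and 0.62 for Hspb1, 1.64 and 1.64 for Reep1 (0.39 at the 5% limit), -0.29 and -0.29 for Ano2 (-0.021 after thinning) and, with the block, -0.69 for Nrp2, called there as was Reep1 (adjusted p = 6.6e-06 and 0.015). Members minus mature basal VSNs came to 0.59 and 0.60 for Atf3, 2.41 and 2.43 for Hey1, and 0.66 and 0.66 for Nr4a1. Thinning moved 11 shares of cells by more than their interval, and 2 libraries a group set the precision throughout.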
